A study of Mus musculus with 2 samples.

Results

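Myotendinous junction myonuclei are the muscle fibre nuclei that lie at the fibre's end, where the sarcolemma meets the tendon. They were looked for in single-nucleus RNA sequencing (snRNA-seq) of the gastrocnemius and plantaris (GP), muscles of the mouse calf. The nuclei were chosen by their own RNA. A nucleus was taken when it held at least 3 unique molecular identifiers (UMIs, each marking 1 captured RNA molecule) of Col22a1 and at least 1 UMI of Fras1, Adamts20, Slc24a2, Col24a1, Tigd4, Ankrd1 or Kcnh7. It also had to hold fewer than 3 UMIs in all of 8 genes of fibroblasts, endothelium and immune cells (Pdgfra, Dcn, Col1a1, Col3a1, Pecam1, Flt1, Ptprb and Ptprc). The rule found 69 junction nuclei among 7741, of which 42 of 3833 were in the control library and 27 of 3908 in the knockout library.

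The control library (Ctrl) came from tamoxifen-treated male Net39 fl/fl mice without Cre. The knockout library (cKO) came from tamoxifen-treated male Net39 fl/fl mice that carry HSA-CreERT2, a tamoxifen-inducible Cre driven by a skeletal actin promoter. That Cre acts in skeletal muscle fibres and spares satellite cells and heart muscle. It removes the first exon of Plpp7, the gene of the nuclear envelope protein Net39. The labels give B6C3F1 as the strain background, and the study's methods describe founders bred to C57BL/6N mice. All mice were 5 months old, 3 months after tamoxifen, and nuclei of 3 muscles were pooled in each of the 2 libraries. With 1 library per group no test of the conditions was possible. Intervals are exact at 95% and hold counting error alone. They do not hold the spread between animals or between nuclei.

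At the myotendinous junction the fibre membrane is folded into finger-like processes and anchored to the tendon's matrix. Force passes there through 2 linkages, the integrin complex and the dystrophin-glycoprotein complex, both of which bind laminins of the basement membrane. Col22a1, collagen XXII, is deposited at tissue junctions and is the usual marker of fibre nuclei at this site. Fibre nuclei share a cytoplasm, yet those at the fibre's ends and those under the nerve keep transcript programmes of their own.

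The comparison group was 2813 Ctrl and 2936 cKO nuclei with no Col22a1 UMI and at least 3 UMIs of the 4 adult myosin heavy chain genes, Myh7, Myh2, Myh1 and Myh4. These are called reference nuclei. Since they had to hold myosin UMIs and junction nuclei did not, a lower myosin level in junction nuclei is in part set by this choice. The median junction nucleus held 2808.5 UMIs in Ctrl, with a range of 1357 to 19474, and 2179 in cKO, with a range of 831 to 8335. The reference medians were 2381 and 1838.5 UMIs. Summed, the junction nuclei gave 174436 UMIs in Ctrl and 68604 in cKO, and the deepest nucleus supplied 11.2% and 12.1% of them. Malat1, a nuclear non-coding RNA, took 26.7% and 28.9% of junction UMIs, and mitochondrial genes took 0.316% and 0.325%. The libraries shared 5 barcodes, none of them a junction nucleus.

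A fixed number of Col22a1 UMIs is easier to reach in a deep nucleus. In Ctrl, 0 of 258 nuclei below 1000 UMIs passed the rule, 10 of 1512 from 1000 to 2000, 16 of 1506 from 2000 to 4000, and 16 of 557 above 4000. In cKO the same bins gave 1 of 579, 10 of 1844, 12 of 1141 and 4 of 344. The 3 lower bins had close shares in the libraries, with 1.06% and 1.05% from 2000 to 4000 UMIs. In the deepest bin the shares were 2.87% (1.65 to 4.62) in Ctrl and 1.16% (0.318 to 2.95) in cKO. A shallow nucleus needs a higher Col22a1 level to reach 3 UMIs, and the cKO nuclei were shallower. The part of this in the levels below was not tested, except where given.

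**Figure D1:**
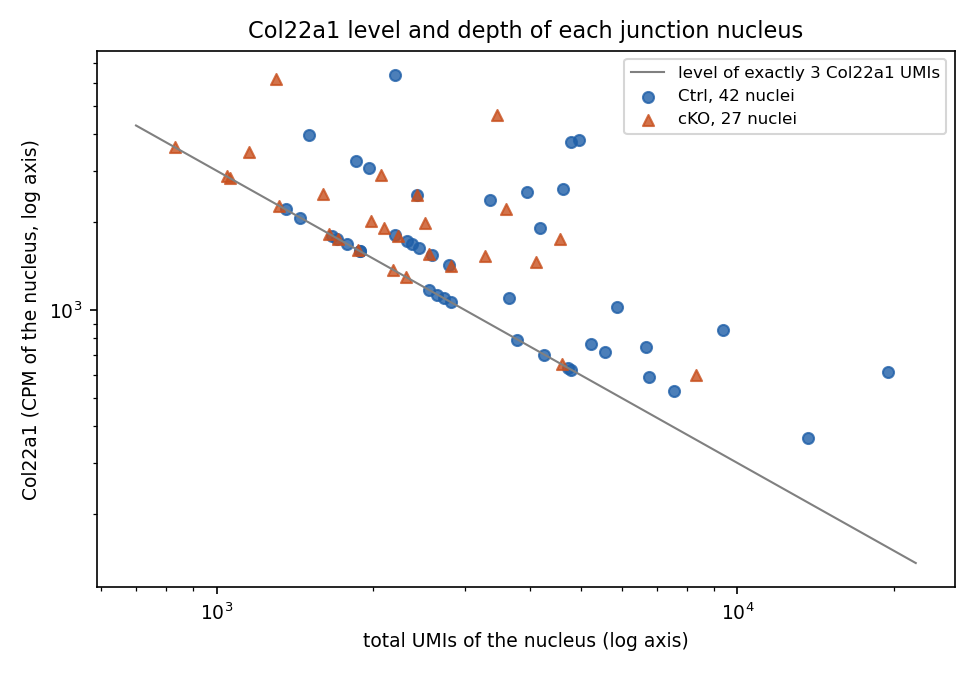
Col22a1 in CPM, its UMIs scaled to a total of 1000000 per nucleus (log axis), against the nucleus's total UMIs (log axis), for 42 Ctrl nuclei (circles) and 27 cKO nuclei (triangles). The grey line is the level that exactly 3 UMIs give, below which no nucleus was taken, and it falls with depth.

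Over all nuclei, junction nuclei made up 1.10% (0.791 to 1.48) of the Ctrl library and 0.691% (0.456 to 1.00) of the cKO library. The difference was -0.405 percentage points, with an interval of -0.854 to 0.0319 that held 0. After each nucleus was thinned to 1000 UMIs, 9 of 3575 Ctrl nuclei and 11 of 3329 cKO nuclei passed the rule, which left out 258 and 579 shallower nuclei. At equal depth the cKO share was thus the higher one, by 0.0787 points (-0.201 to 0.372), and the interval again held 0. Just outside the rule, 22 Ctrl and 17 cKO nuclei met its other parts with exactly 2 Col22a1 UMIs, and just inside it 15 and 10 held exactly 3. Across that edge the other 7 junction genes together stood at 1566 CPM outside and 2721 CPM inside in Ctrl, and at 2466 and 3663 CPM in cKO. Of nuclei with 3 or more Col22a1 UMIs, 8 of 55 in Ctrl and 3 of 31 in cKO held no second junction gene, and 5 and 1 were left out for UMIs of other cell types.

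The 8 junction genes that chose the nuclei are given as a description. Col22a1 (chr15:71795795-72034227, minus strand, GRCm38) stood at 1364 CPM (238 UMIs) in Ctrl and 1910 CPM (131 UMIs) in cKO. Per nucleus it ran from 3 to 19 UMIs in Ctrl and from 3 to 16 in cKO, with a median of 4 in both. Fras1, which encodes a basement membrane protein of the Fraser complex, was held by 30 of 42 Ctrl nuclei and 19 of 27 cKO nuclei, at 648 and 1370 CPM. Adamts20, a secreted metalloprotease gene, was held by 22 and 17 nuclei, and Slc24a2, a sodium-calcium-potassium exchanger gene, by 18 and 9. Col24a1, a fibrillar collagen gene, was held by 30 and 15. Kcnh7, a voltage-gated potassium channel gene, was held by 12 and 8. The mechanically induced Ankrd1 was held by 9 and 5, and Tigd4 by 13 and 5. No gene but Col22a1 was in all nuclei, and 1 of 69 held all 7 second genes.

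The label was checked against genes that the rule did not use. Ttn, which encodes the giant sarcomere protein titin, was in 42 of 42 Ctrl and 27 of 27 cKO junction nuclei, with 33 to 1280 UMIs in Ctrl and 8 to 414 in cKO. Holding alone does not mark a fibre nucleus, since 42 of 48 Ctrl and 15 of 17 cKO endothelial nuclei also held Ttn. Their levels were 3601 and 6811 CPM, against 39143 and 31296 CPM over the junction nuclei, whose lowest nuclei stood at 16820 (Ctrl) and 7540 CPM (cKO). That lowest cKO nucleus was near the endothelial level and held no myosin UMI. The 8 core fibre genes summed to 55631 CPM in Ctrl junction nuclei and 49749 CPM in cKO, against 64965 and 61132 CPM in reference nuclei. The 8 tendon cell genes gave 2 UMIs in Ctrl and 0 in cKO, and Tnmd, Scx, Mkx, Thbs4, Fmod, Comp and Kera were at 0 in every junction nucleus. The 6 fibroblast genes outside the rule gave 19 UMIs in 12 Ctrl nuclei and 2 UMIs in 1 cKO nucleus, with Col1a2, Lum and Cd34 at 0 in all of them. The 5 immune genes outside the rule gave 0 and 1 UMIs, 5 satellite cell genes gave 5 and 0, 4 Schwann cell genes gave 3 and 1, and 4 adipocyte genes gave 0 in both. The 5 endothelial genes outside the rule gave 9 and 1 UMIs. Mural cell genes gave 63 and 28 UMIs, of which 58 and 25 were Abcc9, a potassium channel subunit gene that stood at 332 and 364 CPM in junction nuclei and 276 and 280 CPM in reference nuclei. Genes of fibre nuclei under the nerve gave 50 UMIs in 20 Ctrl nuclei and 10 UMIs in 8 cKO nuclei, or 287 and 146 CPM beside 384 and 313 in reference nuclei. Of the 50 UMIs, 39 were Musk, and Chrna1, Chrnd, Etv4 and Ache were at 0 in all junction nuclei. The group thus carried the core genes of muscle fibres, at most 2 UMIs of tendon cell genes in a library, and genes of the nerve contact at or below their reference level. Nuclei with 3 or more UMIs of the 8 capped genes had been left out. Low counts of genes of other cell types are therefore in part set by the rule. In fibroblast nuclei, defined by 3 UMIs of the rule's fibroblast genes and fewer than 3 of the adult myosins, Col22a1 was held by 1 of 147 in Ctrl (0.680%) and 0 of 42 in cKO, at median depths of 1483 and 1573.5 UMIs. The exact interval for 0 of 42 reaches 8.41%.

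The first question was which other genes were higher in junction nuclei than in reference nuclei of the same library. A gene was called when the ratio was at least 2-fold and its interval excluded 1 in each library. With at least 10 UMIs expected in the junction nuclei of each library, 916 genes could be compared. Of these, 21 (2.29%) were higher and 14 (1.53%) lower in both libraries, and the median log2 ratio over all 916 was -0.15 in Ctrl and -0.16 in cKO.

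Lama2 (chr10:26980036-27619758, minus strand, GRCm38) led the list. It encodes the alpha2 chain of laminin, which links dystroglycan and integrin to the basement membrane, and its loss causes a congenital muscular dystrophy. Lama2 was in 42 of 42 Ctrl and 27 of 27 cKO junction nuclei, with 2 to 79 UMIs (median 18) in Ctrl and 1 to 46 UMIs (median 11) in cKO. The level was 5171 CPM in Ctrl junction nuclei against 263 in reference nuclei, a log2 ratio of 4.30 (4.18 to 4.41). In cKO it was 6166 against 127 CPM, a log2 ratio of 5.60 (5.43 to 5.77). Reference nuclei held Lama2 in 24.9% of cases in Ctrl and 11.6% in cKO. Endothelial nuclei, defined in the same way from endothelial genes, held it in 5 of 48 (10.4%) and 1 of 17 (5.88%), at median depths of 1012 and 777 UMIs. Their levels were 260 CPM (148 to 421) and 107 CPM (13 to 387), close to those of reference nuclei, on 16 and 2 UMIs. The part of free RNA in the reference level, or of the missing cap on fibroblast genes there, was not tested. Fibroblast nuclei also carried it, at 2626 CPM (Ctrl) and 2907 CPM (cKO), below the level in junction nuclei. The 6 fibroblast genes outside the rule summed to 109 CPM (65.6 to 170) in Ctrl junction nuclei and 29.2 CPM (3.53 to 105) in cKO, against 177 and 124 CPM in reference nuclei. The rule had capped 4 other fibroblast genes in junction nuclei and not in reference nuclei, so this contrast is in part set by it. The level was higher with more Col22a1 in Ctrl. Nuclei that met the rule's other parts held Lama2 at 2019 CPM with 1 Col22a1 UMI, 3948 with 2, 4719 with 3 and 4897 with 4 in Ctrl. In cKO the same series was 3291, 2678, 4256 and 9900 CPM, with a dip at 2 Col22a1 UMIs.

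Prkg1 (chr19:30564489-31765033, minus strand, GRCm38), the gene of cGMP-dependent protein kinase I, was second among genes with enough expected UMIs. It was in 40 of 42 Ctrl and 26 of 27 cKO junction nuclei, at 2752 CPM against 305 in Ctrl and 4883 against 408 in cKO. The log2 ratios were 3.17 (3.03 to 3.31) and 3.58 (3.41 to 3.75). Without the nucleus richest in Prkg1 the cKO ratio was 3.39. Next came Atrnl1 at 2.57 and 2.72, Plcl1 at 2.15 and 2.49, and Maml3, a Notch coactivator gene, at 2.30 and 1.76.

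Next are given the called genes that encode matrix, membrane complex or actin-binding proteins, grouped after their values were seen. Lamc1, the laminin gamma1 chain that assembles with Lama2's product, had log2 ratios of 1.73 in Ctrl and 2.78 in cKO. Fibroblast nuclei held Lamc1 at 762 CPM in Ctrl, above the 648 CPM of junction nuclei, and at 524 CPM in cKO, below their 1006 CPM. Sgcd, delta-sarcoglycan of the dystrophin complex, was in 41 of 42 and 27 of 27 nuclei with ratios of 1.33 and 1.34. Sorbs2, an adaptor of actin and adhesion sites, had 1.47 and 2.45, and Xirp2, an actin-binding protein of the intercalated disc and junction, 1.82 and 1.08. Without the nucleus richest in Xirp2 the cKO ratio was 0.95, under 2-fold. Limch1, which acts on non-muscle myosin, had 1.43 and 1.68, and Cobl, an actin nucleator, 1.14 and 1.30, with 0.98 in Ctrl without its richest nucleus. Ext1, which builds heparan sulfate chains, had 1.62 and 1.76, but 40 of its 169 Ctrl UMIs were in 1 nucleus and the Ctrl ratio without it was 1.26.

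The remaining called genes named by rank had other roles. Slc8a1, the sodium-calcium exchanger, had log2 ratios of 1.50 and 1.64, and Akap6, an anchor of protein kinase A at the nuclear envelope, 1.66 and 1.47. Hdac9, a class IIa histone deacetylase gene that also opposes Mef2 activity, had 2.16 and 1.54. Ppm1b had 1.76 and 1.39, Ldlrad3 2.93 and 1.35, Fry 1.17 and 1.83, Fam134b 1.10 and 1.37, and the stress-responsive Sesn1 1.08 and 1.36. Without the richest nucleus the Ctrl ratios of Fam134b and Sesn1 were 0.97 and 0.78, under 2-fold.

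**Figure D2:**
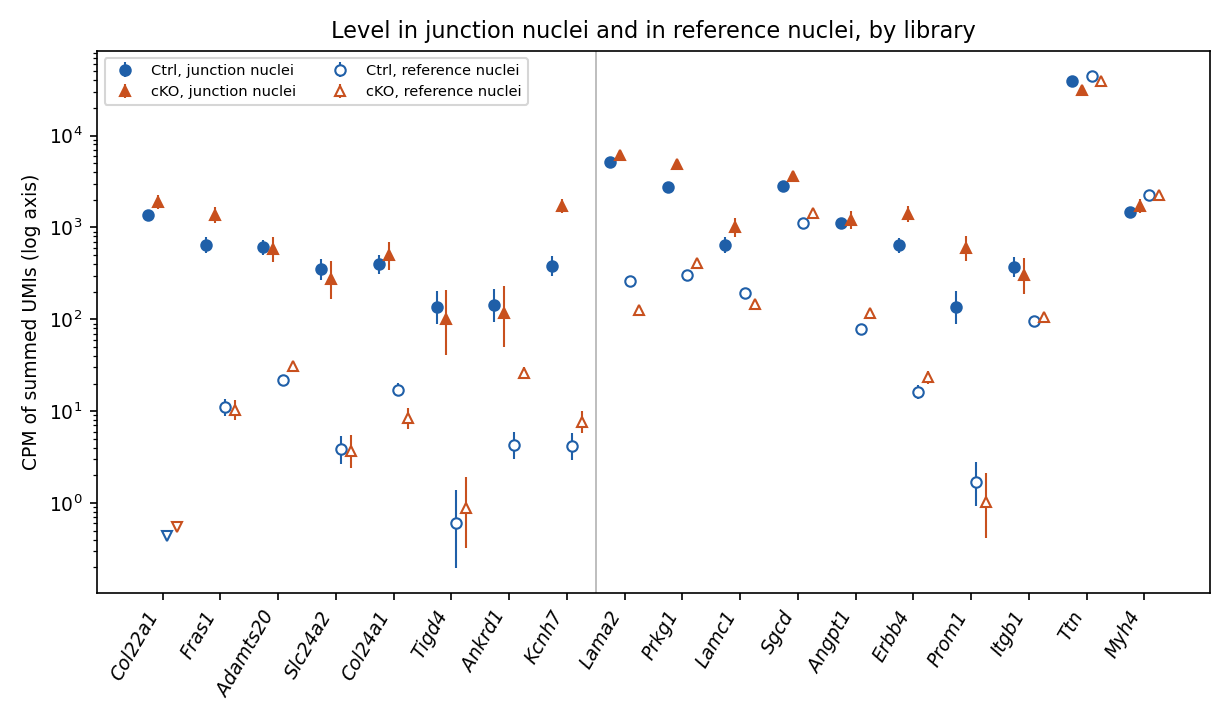
CPM of summed UMIs (log axis) with exact 95% Poisson intervals in junction nuclei (filled) and reference nuclei (open) of Ctrl (circles) and cKO (triangles). The 8 genes left of the line chose the junction nuclei, and open points facing down are the upper bounds where no UMI was seen. Lama2 and Prkg1 stood above reference nuclei in both libraries, while Ttn and Myh4 were below them, Myh4 at 1491 against 2267 CPM in Ctrl and 1720 against 2248 CPM in cKO.

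A filter on expected UMIs leaves out genes that reference nuclei hardly hold. When genes were required instead to have at least 10 observed UMIs in the junction nuclei of each library, 94 of 1027 genes (9.15%) were higher, a choice made after seeing the data. That filter favours genes that are high in junction nuclei, so the count itself says nothing about them. The same 10 UMIs also stand for a higher level in the shallower cKO nuclei than in Ctrl. It adds 73 genes to the 21. Brinp2 had log2 ratios of 7.57 in Ctrl and 9.20 in cKO, from 28 UMIs in 11 nuclei and 18 UMIs in 8. Prom1, which encodes a protein of membrane protrusions, was in 13 of 42 and 14 of 27 nuclei with ratios of 6.35 and 9.17. Reference nuclei held Prom1 in 0.36% and 0.20% of cases.

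Signalling receptors and ligands were among the added genes. Erbb4, a neuregulin receptor gene, was in 20 of 42 Ctrl and 17 of 27 cKO nuclei, at 636 against 16.1 CPM and 1399 against 23.3 CPM, with log2 ratios of 5.30 and 5.91. Epha4, an ephrin receptor gene, had 4.03 and 7.15, from 11 and 13 UMIs. Angpt1, the ligand of the endothelial receptor Tie2, was in 28 and 21 nuclei with ratios of 3.81 and 3.38. Tgfb2 had 1.09 and 2.70, with 0.89 in Ctrl without its richest nucleus, and the interleukin-1 receptor accessory gene Il1rap 3.79 and 4.81. Ncam1, an adhesion molecule found at junctions and on developing fibres, had 2.55 and 1.38. Its cKO UMIs were in 5 nuclei, and without the richest of them the ratio was 0.62.

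Adhesion and matrix genes were added as well. Itgb1, the beta1 integrin chain, was in 23 of 42 and 12 of 27 nuclei with log2 ratios of 1.95 and 1.53, and Itgav had 1.74 and 1.78. Itga7, the alpha chain that pairs with beta1 integrin at this junction, had 21 and 6 UMIs, too few in cKO to be compared, and ratios of 1.91 and 1.31. Pgm5, an adhesion-site protein that binds dystrophin, had 4.24 and 4.97. Hspg2, perlecan, had 1.45 and 1.53, Col4a2 1.97 and 3.46, and Ltbp1 2.04 and 3.18. Single nuclei could dominate a gene: Kcnip4 gave 135 UMIs in Ctrl, of which 113 were in 1 of the 2 nuclei that held it, and 26 in cKO, all in 1 nucleus.

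**Figure D3:**
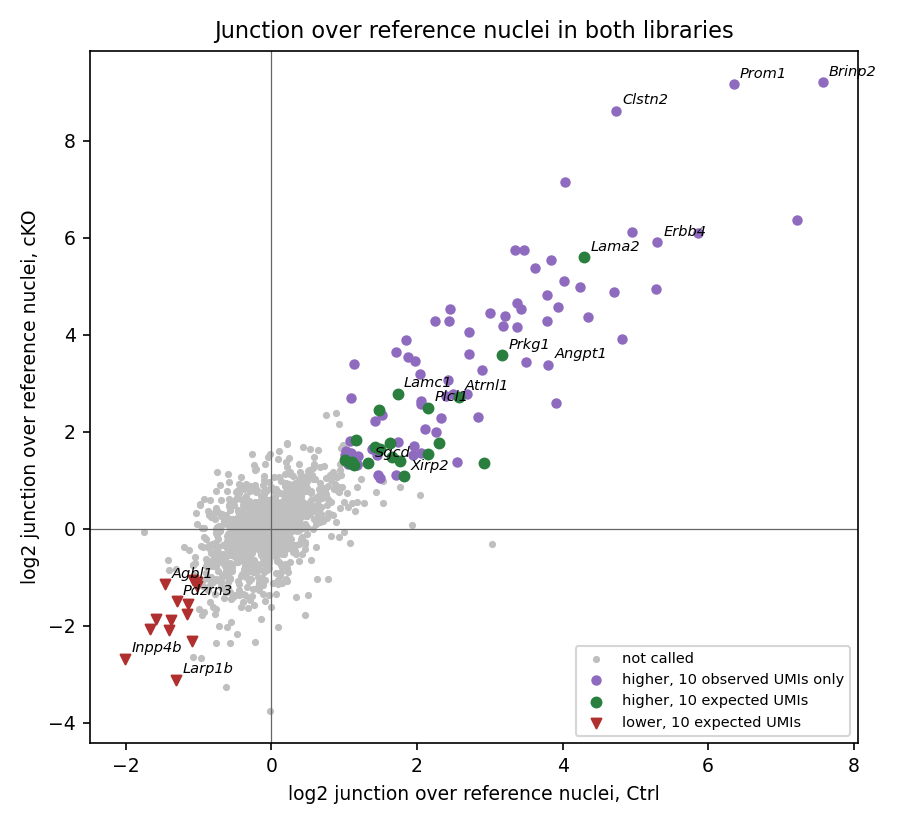
Log2 ratio of junction over reference nuclei in Ctrl (x axis) and cKO (y axis) for 1184 genes outside the rule with at least 10 expected or 10 observed UMIs. Points are genes: 21 green were higher and 14 red lower by expected UMIs, 73 purple were higher by observed UMIs only, and 1 gene with no UMI in a group is left out.

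The 14 lower genes came from several pathways. Ppargc1a, the coactivator of mitochondrial genes, had log2 ratios of -1.41 (-2.09 to -0.81) in Ctrl and -2.09 (-3.54 to -0.97) in cKO. Vegfa, an angiogenic factor gene, had -1.16 and -1.77, on 33 and 8 UMIs. Pdzrn3, a ubiquitin ligase gene that acts on MuSK, stood at 843 CPM in Ctrl junction nuclei against 2080 in reference nuclei, and at 758 against 2128 CPM in cKO, with ratios of -1.30 and -1.49. Agbl1 had -1.46 and -1.14, Inpp4b -2.01 and -2.68, Zmiz1 -1.67 and -2.06, and the cytoplasmic actin gene Actg1 -1.58 and -1.86. Apex2 had -1.37 and -1.87, Larp1b -1.31 and -3.11, and Plcd4 -1.14 and -1.55.

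Gene lists placed these genes among their families. Of 17 sarcolemma complex genes, 8 could be compared and 3 (Lama2, Lamc1 and Sgcd) were higher, against 2.29% of all genes. The list's median log2 ratio was 0.74 in Ctrl and 0.51 in cKO. Dmd, dystrophin, stood at 16734 against 11527 CPM in Ctrl and 18060 against 12001 CPM in cKO, ratios of 0.54 and 0.59 that were under 2-fold. Of 22 integrin and costamere genes, 9 could be compared and 1 (Sorbs2) was higher, with medians of 0.16 and -0.16. Itgb1 was added by observed UMIs. Nrap, a protein of the junction's actin filaments, had 0.57 and 0.36, Tln2 -0.62 and -0.16, and Vcl, vinculin, -0.69 and -0.23. The 12 genes of the Fras1 and basement membrane list had none with enough expected UMIs, and Hspg2 and Col4a2 were the 2 added by observed UMIs. Fras1's partners Frem1 and Grip1 were at 0 in all junction nuclei, and Frem2 gave 0 and 1 UMIs.

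Other lists held few called genes, to be read against 2.29% higher and 1.53% lower over all genes. Of 40 collagens outside the rule none had enough expected UMIs, and 22 were at 0 in the Ctrl and 32 in the cKO junction nuclei. In the transforming growth factor and bone morphogenetic protein list, 4 of 26 genes could be compared and 0 were called, with medians of -0.57 and -0.43. In the mechanical response list, 3 could be compared and 1 (Xirp2) was higher. Without 1 cKO nucleus that ratio was 0.95, just under the 2-fold cut, as given above. The DNA damage list had 1 gene compared, Trp63, at 0.38 and 0.09. The nuclear envelope list had 1, Tmem38a, at -0.46 and -1.07. Of 7 genes in a list of Mef2 genes and other genes the study followed, 1 was higher, Hdac9, and Mef2c stood at -0.44 and -0.27. Of 11 fast fibre genes compared, 0 were called and the median was -0.47 in both libraries, and 0 of 8 core fibre genes were called. Of the developing fibre genes, Myh3, Myh8, Actc1, Myod1, Tnnt2 and Chrng were at 0 in all junction nuclei, and Ncam1 was the 1 with enough observed UMIs.

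Junction nuclei differed among themselves in the genes that marked them. Kcnh7 was held almost entirely by nuclei with Fras1: 11 of the 12 Ctrl nuclei and 8 of the 8 cKO nuclei with Kcnh7 also held Fras1. Over all junction nuclei, Fras1 was held by 30 of 42 in Ctrl and 19 of 27 in cKO. Kcnh7 was in 11 of 30 Ctrl nuclei with Fras1 and 1 of 12 without, and in 8 of 19 and 0 of 8 in cKO. Both genes were part of the rule, and the Ctrl nuclei with Fras1 were deeper, with a median of 3492.5 UMIs against 2694 without (2179 and 2244.5 in cKO). Angpt1 went with Fras1 too, at 1341 CPM in the 30 Ctrl nuclei with Fras1 and 263 CPM in the 12 without, and at 1544 CPM against 400 in cKO. The Fras1 and Angpt1 levels had a Spearman rho of 0.51 over 42 Ctrl nuclei and 0.71 over 27 cKO nuclei, within 1 library each and with a shared total as denominator. Lama2 did not divide this way, at 5050 CPM with Fras1 and 5607 without in Ctrl, and 6524 and 5296 in cKO.

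Other genes were held more often with Adamts20. Slc24a2 was in 13 of 22 Ctrl nuclei with Adamts20 and 5 of 20 without, and in 8 of 17 and 1 of 10 in cKO. Clstn2, a synaptic adhesion gene, was in 8 of 22 and 0 of 20 in Ctrl, and in 7 of 17 and 1 of 10 in cKO. In Ctrl both were also held more often with Fras1: Slc24a2 in 15 of 30 nuclei and 3 of 12 without, Clstn2 in 8 of 30 and 0 of 12. In cKO they were not, with 5 of 19 and 4 of 8 for Slc24a2 and 4 of 19 and 4 of 8 for Clstn2. A set apart from Fras1 was thus not seen in Ctrl. Ctrl nuclei with Adamts20 were deeper, with medians of 4674.5 UMIs against 2433.5, which raises the chance of holding any second gene. The cKO medians were 2232 and 2122 UMIs. Fras1 stood at 409 CPM with Adamts20 and 1136 CPM without it in Ctrl, and at 1110 and 1867 CPM in cKO. By holding, Fras1 was in 16 of 22 and 14 of 20 in Ctrl, and in 11 of 17 and 8 of 10 in cKO. Of its 65 Ctrl UMIs without Adamts20, 24 were in 1 nucleus. The rule asked for at least 1 of the 7 second genes, so a nucleus without Adamts20 had to hold another, and that contrast is in part set by the rule. These splits were noted after the values were seen and are descriptions of these nuclei.

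**Figure D4:**
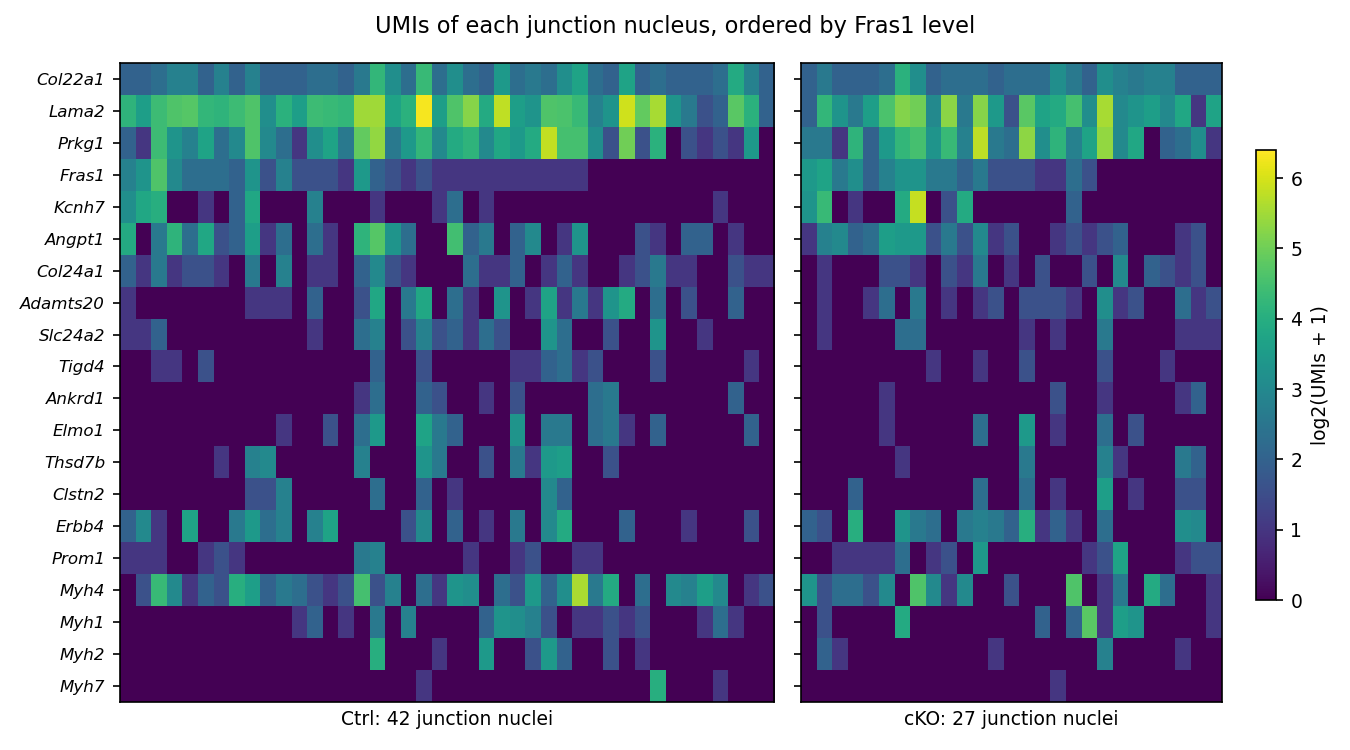
UMIs of 20 genes (rows) in each junction nucleus (columns), as log2(UMIs + 1), for 42 Ctrl and 27 cKO nuclei, with the highest Fras1 level at the left and nuclei without Fras1 at the right. Lama2 filled all columns, while Kcnh7 and Angpt1 were mostly on the side with Fras1.

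The fibre types of the junction nuclei were read from the adult myosins. At least 3 myosin UMIs were held by 32 of 42 Ctrl and 17 of 27 cKO nuclei. A nucleus was assigned to the myosin with at least 60% of these UMIs. In Ctrl, 21 of 42 were Myh4 nuclei of the fastest type IIb fibres, 4 were Myh1, 3 were Myh2, 1 was Myh7 and 13 were unassigned. In cKO the counts were 10 Myh4, 5 Myh1, 1 Myh2, 0 Myh7 and 11 unassigned of 27. The Myh4 share differed by -13 points (cKO minus Ctrl), with an interval of -36.6 to 13 that held 0, and after thinning to 1000 UMIs by 14.1 points (-7.95 to 37.2). Thinning left 33 of 42 Ctrl and 15 of 26 cKO nuclei unassigned, so that value rests on 7 and 8 Myh4 nuclei and on an unequal loss of assignments. No difference was detectable at this depth.

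The summed level of slow fibre genes was lower in cKO junction nuclei than in cKO reference nuclei, by intervals that hold no spread between nuclei. The 11 genes, among them Myh7 and Tnnt1, gave 13 UMIs in 9 of the 27 cKO junction nuclei, or 190 CPM (101 to 324). In cKO reference nuclei they stood at 2063 CPM (2029 to 2098). In Ctrl the levels were 413 CPM (323 to 520) and 262 CPM (251 to 273), with 33 of the 72 junction UMIs in 1 nucleus. Myh7, slow myosin, gave 17 UMIs in Ctrl, of which 15 were in 1 nucleus, and 1 in cKO. Atp2a2, the slow calcium pump, stood at 43.7 CPM (3 UMIs) in cKO junction nuclei against 596 CPM in reference nuclei, a log2 ratio of -3.77 (-6.05 to -2.22). Tpm3, slow tropomyosin, had -3.44 (-6.49 to -1.59) in cKO and 1.43 (0.75 to 2.03) in Ctrl. In cKO, 301 of 2936 reference nuclei (10.3%) were Myh7 nuclei, against 20 of 2813 (0.711%) in Ctrl. The exact interval for 0 of 27 cKO junction nuclei reaches 12.8%, which takes in the 10.3% of reference nuclei. A lack of slow nuclei at the junction was thus not shown by this count. The part of the number of Myh7 nuclei in the summed levels was not tested.

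The second question was how cKO junction nuclei differed from Ctrl junction nuclei. The targeted gene comes first. Plpp7 gave 10 UMIs in 9 of 42 Ctrl junction nuclei and 5 UMIs in 5 of 27 cKO nuclei, a log2 ratio of 0.35 (-1.55 to 2.03), and -0.23 in reference nuclei. The study reported reduced Net39 mRNA in whole cKO GP muscle of the same age, by bulk RNA sequencing, and reduced protein in cKO muscle. The junction counts here rest on few UMIs, with an interval that held 0, so they do not check the deletion. Reads came from the transcript's 3′ end and only the first exon was removed. The part of this in the Plpp7 counts was not tested. Of 1792 genes with at least 20 UMIs in the junction nuclei of both libraries together, 63 (3.52%) were higher and 86 (4.8%) lower in cKO by at least 2-fold with an interval that excluded 1. All 8 junction genes of the rule were among the 1792, and 2 of them, Kcnh7 and Fras1, were among the 63. Their levels are in part set by the rule. The median log2 ratio was -0.04 in junction nuclei and -0.09 for the same genes in reference nuclei. Each interval holds for 1 gene, so some of these genes would pass by counting error alone.

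Of the 10 lower genes named by rank, 8 also had an interval below 0 in reference nuclei, and Nrxn3 and Sqstm1 did not. Over all 1792 genes 778 had one, since the large reference groups give narrow intervals. Fkbp5, a glucocorticoid-induced co-chaperone gene, gave 72 UMIs in 26 of 42 Ctrl nuclei and 4 UMIs in 2 of 27 cKO nuclei, a log2 ratio of -2.82 (-4.74 to -1.40) beside -4.44 in reference nuclei. Zbtb16, a transcription factor gene also induced by glucocorticoids, stood at 2798 CPM in Ctrl and 656 in cKO, a ratio of -2.09 (-2.57 to -1.65) beside -1.42. It was in 42 of 42 and 19 of 27 nuclei, and 119 of its 488 Ctrl UMIs were in 1 nucleus. Tbc1d1, a regulator of glucose transporter traffic, had -2.06 beside -2.11. Arrdc2 gave 33 UMIs in 12 Ctrl nuclei and 0 in cKO, at least 4.33-fold lower against a floor of 3 UMIs, beside a log2 ratio of -3.43 in reference nuclei. Smox, a polyamine oxidase gene, had -3.82 beside -1.33, from 36 and 1 UMIs, Eya4 had -1.84 beside -0.84, and Mical2 -3.61 beside -0.82.

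Nrxn3, Smyd2 and Sqstm1 had the ratios nearest 0 in reference nuclei among these 10. Nrxn3, a neurexin gene, gave 33 UMIs in 7 Ctrl nuclei, 20 of them in 1, and 1 UMI in cKO, beside 0.21 in reference nuclei. Smyd2, a methyltransferase gene of the sarcomere, and Sqstm1, the autophagy adaptor p62, each gave 22 UMIs in Ctrl and 0 in cKO, at least 2.88-fold lower, beside -0.69 and -0.13 in reference nuclei. The muscle ubiquitin ligase genes Trim63 and Fbxo32 were lower in cKO in both groups, with -1.14 and -1.04 in junction nuclei and -1.31 and -1.38 in reference nuclei. At 1000 CPM of Col22a1 or more their junction ratios were -0.88 and -0.67, under 2-fold. Tead1, a transcription factor gene of the Hippo pathway, had -1.15 (-1.81 to -0.54) beside -0.05. Musk, the agrin receptor kinase, had -1.94 (-3.88 to -0.47) beside -0.63, from 39 and 4 UMIs.

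Some genes higher in cKO were also among those that chose or marked the junction nuclei. Their direction is in part set by that choice, through the rule for Kcnh7 and Fras1 and through the filter on observed UMIs for Prom1, Erbb4, Asap2 and Map3k7cl. Kcnh7 stood at 384 CPM in Ctrl and 1720 in cKO, a log2 ratio of 2.16, and 56 of its 118 cKO UMIs were in 1 nucleus. Without the richest nucleus of each library it was 1.61. Prom1 stood at 138 and 598 CPM, a ratio of 2.12 (1.36 to 2.91) beside -0.70 (-2.25 to 0.71) in reference nuclei. Erbb4 had 1.14 (0.73 to 1.54) beside 0.53. Asap2, an Arf GTPase-activating protein gene, had 1.67 (0.91 to 2.44) beside -0.73 (-1.19 to -0.29). Map3k7cl had 1.98 beside 2.34. Among the 94 genes higher in junction nuclei by observed UMIs, the median cKO ratio was 0.47 in junction nuclei and -0.12 in reference nuclei. The filter on observed UMIs, which asks for a higher level in cKO, favours genes high in cKO junction nuclei, so this median is a description only.

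Some of that shift moved with how the nuclei were chosen. When only junction nuclei with Col22a1 at 1000 CPM or more were compared, 30 in Ctrl and 25 in cKO with Col22a1 itself at a log2 ratio of 0.02, the median of the 94 genes was 0.25, beside -0.02 for all 1057 genes compared. There Prom1 had 2.19, Asap2 1.22, Map3k7cl 1.57 and Erbb4 0.87. Lama2 changed sign, from 0.25 (0.08 to 0.42) to -0.22 (-0.40 to -0.04). Prkg1 had 0.83 (0.62 to 1.03) over all junction nuclei and 0.72 (0.48 to 0.95) in these. For genes not given here, this was not tested one by one.

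The other higher genes named by rank had varied roles. Ntm, a neural adhesion gene, gave 0 UMIs in Ctrl and 21 in 4 cKO nuclei, at least 17.8-fold higher against the floor of 3 UMIs, and 12 of them were in 1 nucleus. Nebl, which encodes the thin filament protein nebulette, gave 2 and 19 UMIs, the latter in 4 nuclei. Myh1, the myosin of type IIx fibres, gave 57 UMIs in 18 of 42 Ctrl nuclei and 70 in 9 of 27 cKO nuclei, a log2 ratio of 1.64 (1.12 to 2.17) beside 0.53 in reference nuclei, and 0.93 at 1000 CPM of Col22a1 or more. Tnrc18, with 7 UMIs in Ctrl and 14 in cKO, had 2.35 (0.94 to 3.90) beside 0.04, and Arhgap17, with 12 and 18 UMIs, had 1.93 (0.80 to 3.12) beside 0.12. Lists are read against 3.52% higher and 4.8% lower over all genes. Of 8 sarcolemma complex genes with enough UMIs, 0 were called in either direction, and of 15 integrin and costamere genes 1 was lower (Flnc, filamin C, at -1.26 beside 0.55). The DNA damage list had 2 genes compared and 0 called, and Tgfb2, at 1.29, was the 1 called of 9 genes compared in its list, with 0.75 at 1000 CPM of Col22a1 or more.

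**Figure D5:**
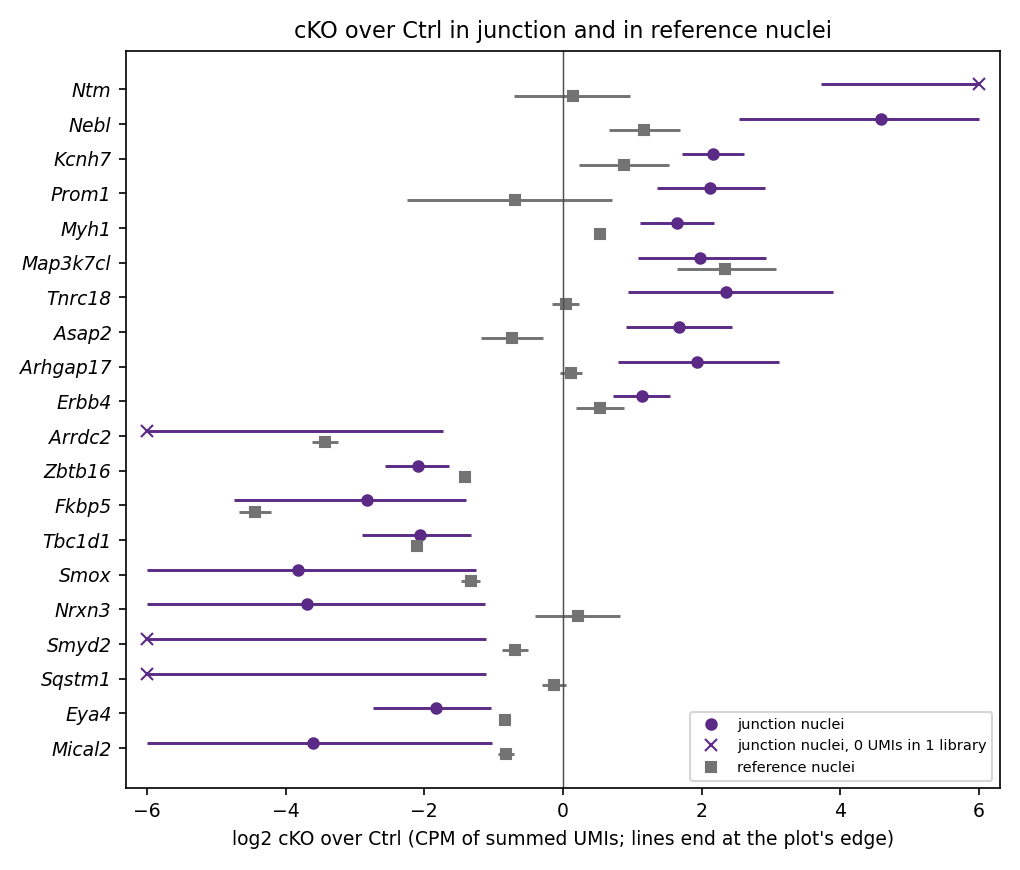
Log2 ratio of cKO over Ctrl in junction nuclei (circles) and reference nuclei (squares) for the 10 higher and 10 lower genes whose intervals lay farthest from 0, with exact 95% intervals. Crosses at the edge are genes with 0 UMIs in 1 library. Fkbp5, Tbc1d1 and Arrdc2 were lower in both groups, while Prom1 and Asap2 were above 0 in junction nuclei and below 0 in reference nuclei, where the interval of Prom1 held 0.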

How the data were processed

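The authors made the deposited matrices with Cell Ranger 3.1.0 on mm10 (GRCm38), at its default settings per the methods. The deposited values are raw counts of UMIs for 27998 genes in each barcode, made by the authors with no normalization. The labels and the study's methods name different releases of the 3′ droplet kit, and the annotation release, and whether its gene models took in introns, is not given in the sources used here. Identifiers matched GENCODE M21 for 27722 genes, which gave coordinates. Barcodes were kept with at least 500 UMIs and at most 10% of UMIs from mitochondrial genes.

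UMIs were summed per library and group of nuclei and given as CPM. Exact intervals were Poisson for CPM, conditional binomial for ratios and Clopper-Pearson for shares, and a difference of shares combined the bounds of both shares. Scrublet (scanpy 1.11.5, expected rate 0.06) marked 0 doublets in either library and so did not work. Of the junction nuclei, 0 were among the 8% with the highest doublet scores. Leaving those 8% out therefore removed no junction nucleus, and the scores do not check the junction nuclei for doublets. Python 3.11.15 was used with pandas 2.3.3, scipy 1.17.1, matplotlib 3.10.9 and numpy 2.4.6, and the code was tested on simulated data.

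The text names the rule's genes, the 20 higher and 10 lower genes ranked by the weaker of their 2 library ratios, the 10 higher and 10 lower genes in cKO ranked by the interval bound nearest to 0, and genes of the fixed lists. Genes from the filter on observed UMIs were added after seeing the data. The nuclei, the rule and the lists were chosen with earlier results of these data known.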

Additional observations from a re-analysis of the deposited data

Results flagged for a closer look

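Of 183 named genes with at least 20 UMIs in junction nuclei, 17 had cKO over Ctrl intervals on opposite sides of 0 in junction and in reference nuclei, 14 of them higher in cKO junction nuclei. Over all 1792 genes compared, 47 did, 32 of them higher in cKO junction nuclei. Many named genes came from the filter on observed UMIs, which favours genes high in the shallower cKO junction nuclei, so the direction of the 17 is in part set by that choice. The difference between the groups of nuclei was not tested, since each rests on 1 library per condition. All values are log2 ratios, with the junction value first and the reference value second. Laminin chains and adhesion genes were Lama2 at 0.25 and -1.05, Lamc1 at 0.63 and -0.42, and Sorbs2 at 0.48 and -0.49. Receptor, ligand and signalling genes were Epha4 at 1.59 and -1.53, Tgfb2 at 1.29 and -0.32, Asap2 at 1.67 and -0.73, Vav3 at 1.39 and -0.69, and Peli1 at 0.72 and -0.26. Clstn2 stood at 1.35 and -2.53, Atp13a5 at 1.14 and -1.15, Lhfp at 1.10 and -1.17, Nav3 at 0.73 and -0.97, Zfp385b at 0.55 and -0.61, and Fry at 0.50 and -0.17. The 3 genes in the opposite order were muscle structural genes: Tpm3 at -2.18 and 2.69, Flnc at -1.26 and 0.55, and Xirp2 at -0.41 and 0.33. The junction interval of Tpm3, a slow fibre gene, was wide, at -5.31 to -0.16. Myh7 nuclei were 20 of 2813 reference nuclei in Ctrl and 301 of 2936 in cKO, and their part in its reference ratio was not tested. In junction nuclei at 1000 CPM of Col22a1 or more, Lama2 stood at -0.22 and the other 16 kept their sign. Fibroblast nuclei numbered 147 in Ctrl and 42 in cKO, and Col3a1 in reference nuclei stood at 58.4 and 15.3 CPM. Endothelial nuclei held Lama2 at 260 CPM (148 to 421) in Ctrl and 107 CPM (13 to 387) in cKO, beside 263 and 127 CPM in reference nuclei. The endothelial values rest on 16 and 2 UMIs. Reference nuclei had no cap on fibroblast genes, and the part of this and of free RNA in the reference ratio was not tested.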

How the results depend on the processing

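There was 1 library per group, so no test of the conditions was possible. Depth is a further limit, with 69 nuclei, shallower in cKO, and many genes on few UMIs. No paired analysis was possible because each group has 1 library. The lower share of junction nuclei in cKO became a difference of 0.0787 percentage points (-0.201 to 0.372) when nuclei were thinned to 1000 UMIs, and the Myh4 difference became 14.1 points. Both had kept their direction under the other settings. The share's interval excluded 0 with 2 Col22a1 UMIs, with no second gene, with no limit on other cell types and among nuclei with 3 myosin UMIs.

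Genes higher in junction nuclei (21) numbered 8 with at least 5 Col22a1 UMIs, 5 with 30 expected UMIs, 190 with no minimum and 94 with 10 observed UMIs. Genes lower there (14) numbered 4, 4 and 27 under the first 3 of these, 27 when each nucleus was scaled before averaging and 22 without the deepest nucleus of each library. Genes higher in cKO (63) numbered 34 with at least 5 Col22a1 UMIs, of which 12 were shared, 18 with 50 UMIs and 159 with no minimum. Genes lower in cKO (86) numbered 45 with 50 UMIs and 51 at 1000 CPM of Col22a1. Fewer nuclei or genes enter under the stricter settings. Totals without Malat1 and mitochondrial genes gave 76 higher and 77 lower in cKO. Of the values of named genes, 46 moved beyond their main interval and 861 did not, and 0 of the called ones changed sign. Of the 861, 224 came from leaving out the highest doublet scores, which removed no junction nucleus. Another 224 came from totals without Malat1 and mitochondrial genes, which shift all genes of a group alike. Scaling each nucleus first moved 30 values and left 194, and removing the richest nucleus moved 15 and left 205. Without their richest nucleus, Cobl, Fam134b, Sesn1 and Arhgap24 in Ctrl (0.98, 0.97, 0.78 and 0.76) and Xirp2 in cKO (0.95) were under 2-fold over reference nuclei. When each nucleus was scaled first, Myh1 and Erbb4 in cKO over Ctrl stood at 0.99 and 0.97. The filter on observed UMIs, the comparison at 1000 CPM of Col22a1 and the removal of single nuclei were chosen after seeing the data.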
